A study of Mus musculus with 14 samples.

Results

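Expression of 10 genes of the earliest granulocyte and monocyte programme was followed across bone marrow progenitors that had kept or lost a histone label. The genes were Mpo, Elane, Prtn3, Ctsg, Ms4a3, Cst7, Plac8, Cebpa, Gfi1 and Irf8. They were taken by symbol from an Affymetrix table of 45101 probe sets, which gave 18194 genes when each gene was represented by its brightest probe set over all arrays. All 10 were measured. The cells had the LSK phenotype (Lineage-, Sca1+, Kit+), the marrow fraction that contains hematopoietic stem cells (HSCs) and multipotent progenitors. All mice were hCD34 x H2BGFP double transgenic (huCD34-tTA and Tet-O-H2B-GFP) on a C57BL/6 background backcrossed for at least 10 generations. A human CD34 promoter drove the transactivator, so labelling depended on that promoter's activity in stem and multipotent cells. Every group drank water with 1 mg/ml doxycycline during 12 weeks, begun at 6 to 8 weeks of age, which stopped synthesis of the GFP-tagged histone. Label then diluted with each division. Sorted cells formed 5 ranked levels: GFP0, with the most diluted label (2 arrays), GFP1 (3 arrays), GFP2 (3 arrays), GFP3 (2 arrays) and GFP4, with the most label retained (4 arrays). The labels call the arrays biological replicates without naming animals, and no unlabelled or undosed group was used here, so p-values measure only the spread between these sorted samples.

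Primary (azurophil) granules are the first granules made in the neutrophil lineage, at the promyelocyte stage. They carry myeloperoxidase (Mpo), which makes hypochlorous acid, and a family of serine proteases that includes neutrophil elastase (Elane), proteinase 3 (Prtn3) and cathepsin G (Ctsg). Their transcripts appear in granulocyte-monocyte progenitors, before those of the secondary granules, and are low or absent in stem cells. Transcription of these genes is known to depend on PU.1, C/EBP and MYB factors.

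The promoter windows of the 4 granule genes and of Cst7 are shown because all 5 hold a short motif, AGGAAGT, of PU.1 and other ETS factors. Each is the RefSeq window (GRCm38.p6) from 250 bases before to 50 after an annotated gene start, read 5′ to 3′ on the gene's strand. Capitals mark AGGAAGT and, where present, the MYB core CAACNG or TAACNG, each searched on both strands. The Cst7 window holds no MYB core. The windows lie at chr11:87793534-87793833 on the plus strand for Mpo, chr10:79886062-79886361 on the plus strand for Elane, chr10:79879417-79879716 on the plus strand for Prtn3, chr14:56102525-56102824 on the minus strand for Ctsg and chr2:150570165-150570464 on the plus strand for Cst7.
Mpo: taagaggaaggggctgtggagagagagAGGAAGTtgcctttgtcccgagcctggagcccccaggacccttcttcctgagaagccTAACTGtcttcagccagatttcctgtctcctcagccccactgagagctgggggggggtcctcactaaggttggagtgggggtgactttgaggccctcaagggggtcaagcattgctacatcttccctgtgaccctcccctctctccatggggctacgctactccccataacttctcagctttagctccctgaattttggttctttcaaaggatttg
Elane: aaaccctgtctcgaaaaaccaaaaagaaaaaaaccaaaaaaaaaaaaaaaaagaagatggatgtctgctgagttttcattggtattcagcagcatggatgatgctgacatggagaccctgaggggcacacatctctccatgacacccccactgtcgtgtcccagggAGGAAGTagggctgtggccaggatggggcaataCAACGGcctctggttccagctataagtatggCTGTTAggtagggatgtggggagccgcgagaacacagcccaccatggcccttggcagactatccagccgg
Prtn3: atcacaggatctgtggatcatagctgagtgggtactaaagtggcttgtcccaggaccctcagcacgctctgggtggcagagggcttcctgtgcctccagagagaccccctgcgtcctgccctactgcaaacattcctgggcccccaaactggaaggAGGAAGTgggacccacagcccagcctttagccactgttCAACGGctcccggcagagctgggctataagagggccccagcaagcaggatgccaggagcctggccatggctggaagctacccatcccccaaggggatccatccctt
Ctsg: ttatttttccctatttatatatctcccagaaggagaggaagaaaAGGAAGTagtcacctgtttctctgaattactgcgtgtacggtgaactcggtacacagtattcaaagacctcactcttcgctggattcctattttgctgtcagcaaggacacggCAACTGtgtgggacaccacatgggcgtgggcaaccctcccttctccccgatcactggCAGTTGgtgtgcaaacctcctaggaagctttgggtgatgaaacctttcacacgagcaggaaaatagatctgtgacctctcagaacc
Cst7: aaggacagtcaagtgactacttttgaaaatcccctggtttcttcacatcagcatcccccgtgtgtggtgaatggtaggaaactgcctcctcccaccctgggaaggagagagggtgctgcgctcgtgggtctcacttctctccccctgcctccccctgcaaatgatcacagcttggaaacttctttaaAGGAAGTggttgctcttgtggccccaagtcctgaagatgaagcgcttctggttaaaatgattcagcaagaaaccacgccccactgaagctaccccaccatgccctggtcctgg
AGGAAGT occurred in 5 of the 13 windows held for the 10 genes (38.5%) and in 9.35% of all 32851 promoter windows of this length. The MYB core occurred in 7 of the 13 windows (53.8%), against 49.7% of all windows. A C/EBP core, TTNNGNAA, occurred in 5 of the 13 windows (38.5%), against 40.7% of all, and none of the 4 granule genes held it in a window. Elane and Prtn3 are neighbours, with window starts 6.645 kb apart on the same strand. Both carry AGGAAGT followed by CAACGG, at bases 167 to 173 and 200 to 205 of the Elane window, and at bases 157 to 163 and 195 to 200 of the Prtn3 window. A match is a stretch of letters, and binding was not measured.

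All values are log2 expression as deposited, from probe sets with no detection calls. One probe set's level cannot be set against another's, so levels are compared only within a gene. The array medians lay between 6.96 and 7.18. The array interquartile ranges ran from 2.09, in GFP0 replicate 1, to 2.73. Over the 18194 genes, arrays of the same level correlated with r from 0.928 to 0.990 and arrays of different levels with r from 0.911 to 0.990. Several arrays correlated best with an array of another level. Among them were GFP4 replicate 2 with GFP2 replicate 1, GFP4 replicate 3 with GFP3 replicate 1 and GFP0 replicate 2 with GFP2 replicate 2. GFP4 replicate 2 stood apart from the other GFP4 arrays in the genes described here, and the calls are given with and without it. Of the genes behind the sort's positive markers, Kit was measured. Kit lay between 8.05 and 9.91. It was 8.70 in GFP4 replicate 2 and 9.13 to 9.50 in the other GFP4 arrays. Over the 14 arrays Kit correlated with the mean profile of the 4 granule genes at r = -0.784, a description with no test. Such a value was not particular to Kit. The 10 HSC markers used below had r from -0.834 (Fgd5) to -0.467 (Vwf), with -0.784 for Pdzk1ip1 and -0.759 for Slamf1. Cd3e, a lineage marker, lay between 7.1 and 7.9. Cd8a, another, measured 8.74 and 8.20 at GFP0 and between 6.99 and 8.22 at the other levels. Itgam, also a lineage marker, lay between 4.9 and 5.6, below the table's median of 7.03, so its narrow range says little.

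Mpo and Ctsg were high in most GFP0, GFP1 and GFP2 arrays and low in the GFP3 arrays and in 3 of the 4 GFP4 arrays. Elane was highest at GFP1, and Prtn3 varied little. Mpo measured 11.98 and 13.61 at GFP0, 13.99, 14.06 and 11.37 at GFP1, 13.83, 12.51 and 9.89 at GFP2, 10.48 and 10.07 at GFP3, and 7.88, 13.29, 9.67 and 9.12 at GFP4. The GFP4 array at 13.29 lay among the GFP0 arrays, while the other 3 lay below both. Means were 12.80 ± 1.15 at GFP0 (SD, n = 2), 13.14 ± 1.53 at GFP1 (n = 3), 12.08 ± 2.00 at GFP2 (n = 3), 10.28 ± 0.29 at GFP3 (n = 2) and 9.99 ± 2.32 at GFP4 (n = 4). In sorted bulk cells, fewer cells that express a gene and less RNA of it in each cell cannot be told apart.

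Elane measured 9.51 and 9.87 at GFP0, 13.81, 12.95 and 8.19 at GFP1, 12.48, 10.69 and 7.43 at GFP2, 8.17 and 7.79 at GFP3, and 6.97, 11.17, 7.48 and 7.18 at GFP4. It had the widest spread of the 10 genes, and its highest values were at GFP1, not at GFP0, the level with the most diluted label. Ctsg measured 13.04 and 13.74 at GFP0, 14.32, 14.09 and 11.84 at GFP1, 14.20, 13.12 and 9.97 at GFP2, 10.18 and 9.23 at GFP3, and 8.19, 13.80, 9.70 and 9.25 at GFP4. Its GFP4 replicate 2 value exceeded both GFP0 arrays, whereas the other 3 GFP4 arrays lay more than 3 log2 units below them. Prtn3 measured 13.30 and 13.74 at GFP0, 14.45, 14.42 and 13.42 at GFP1, 14.35, 13.67 and 13.62 at GFP2, 13.37 and 13.49 at GFP3, and 12.97, 13.91, 13.36 and 13.46 at GFP4. The Prtn3 probe set moved within a narrow range close to the top of the table's scale. Its GFP4 and GFP0 arrays overlapped. Both GFP3 arrays lay below all 3 GFP2 arrays, as they also did for Cst7, Plac8 and Irf8. The share of all genes so arranged was not counted, so this describes the arrays and is no result about these genes.

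**Figure D1:**
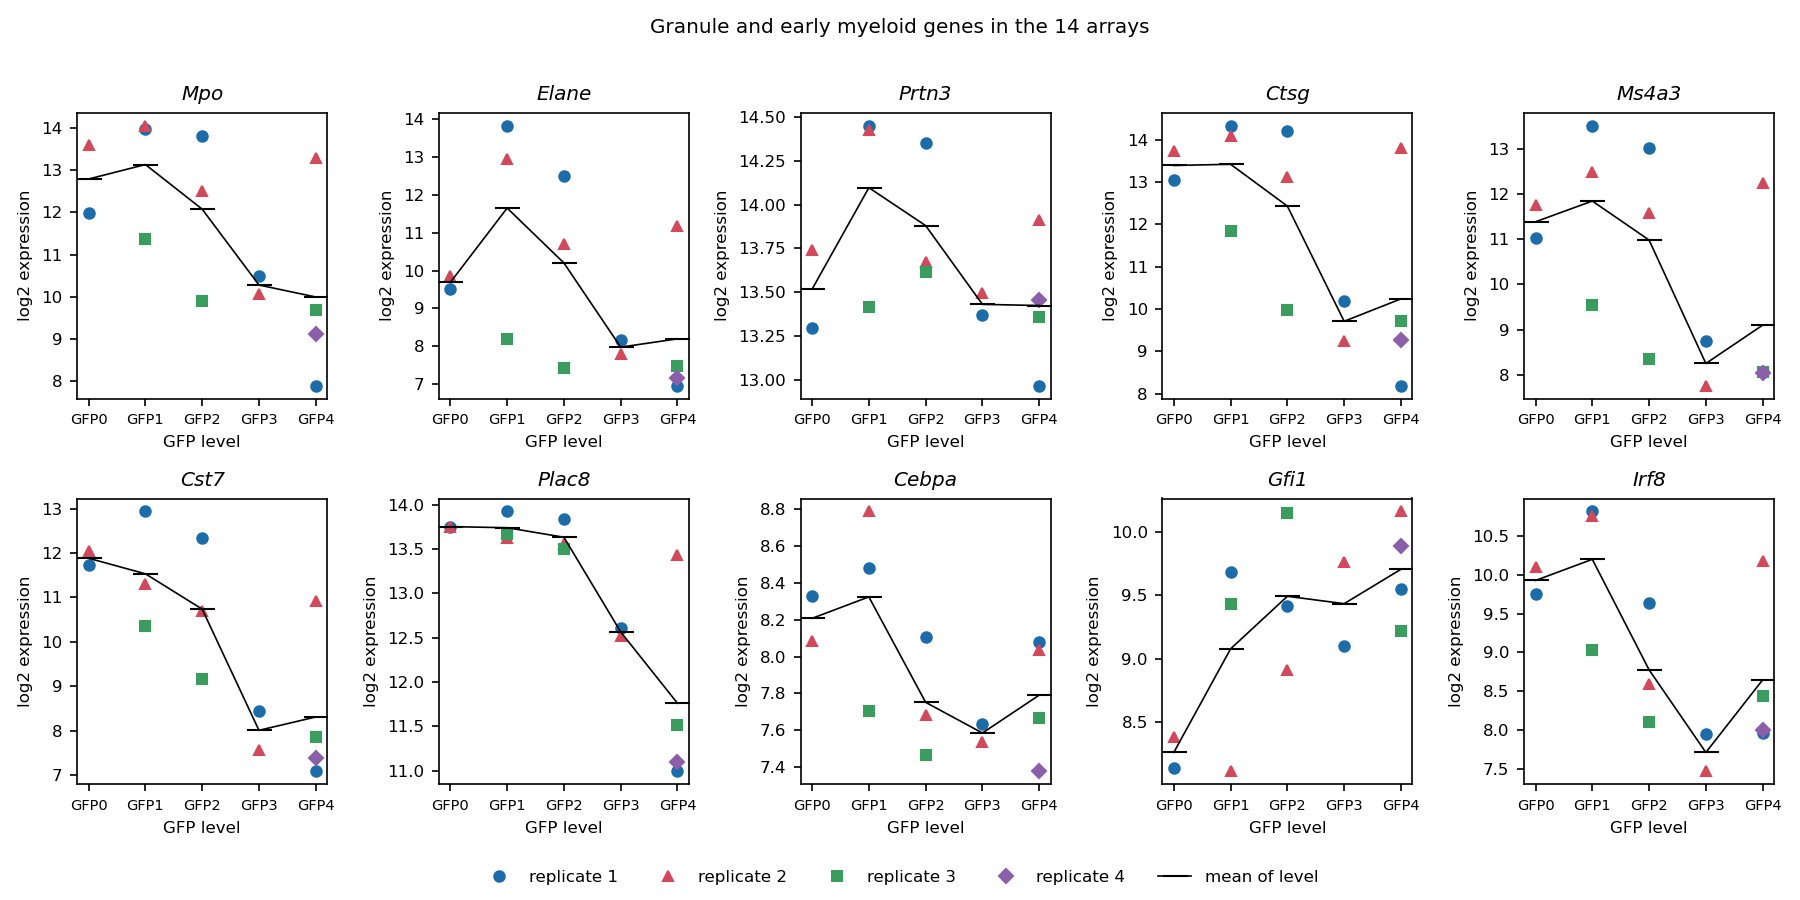
Log2 expression of the 10 genes (vertical axis, own scale per panel) in each of the 14 arrays against GFP level (horizontal axis), with symbols for the replicate numbers and a line through the level means. In Mpo, Elane, Ctsg, Ms4a3, Cst7, Plac8 and Irf8 the triangle at GFP4, replicate 2, lies well above the other GFP4 arrays, and Gfi1 is the gene with its lowest mean at GFP0.

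Ms4a3, Cst7 and Plac8 mark early myeloid progenitors. Ms4a3 encodes a membrane protein of granulocyte-monocyte progenitors. It measured 11.03 and 11.75 at GFP0, 13.50, 12.48 and 9.55 at GFP1, 13.02, 11.57 and 8.35 at GFP2, 8.74 and 7.77 at GFP3, and 8.07, 12.24, 8.06 and 8.04 at GFP4. GFP4 replicates 1, 3 and 4 were within 0.1 of each other, and replicate 2 was far above them. Cst7 encodes cystatin F, an inhibitor of lysosomal cysteine proteases. It measured 11.72 and 12.05 at GFP0, 12.93, 11.30 and 10.36 at GFP1, 12.33, 10.70 and 9.18 at GFP2, 8.45 and 7.57 at GFP3, and 7.10, 10.92, 7.85 and 7.39 at GFP4. Every GFP4 array of Cst7, replicate 2 included, lay below both GFP0 arrays. Plac8, a small cysteine-rich protein of myeloid and lymphoid progenitors, measured 13.75 and 13.76 at GFP0, 13.93, 13.63 and 13.67 at GFP1, 13.85, 13.55 and 13.51 at GFP2, 12.61 and 12.52 at GFP3, and 10.99, 13.44, 11.52 and 11.09 at GFP4. Plac8 was nearly flat over GFP0 to GFP2, lower in both GFP3 arrays and lowest in 3 of the 4 GFP4 arrays.

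Among the 3 transcription factors, the level means of Cebpa and Irf8 were highest at GFP1 and lowest at GFP3, and those of Gfi1 were highest at GFP4 and lowest at GFP0. Cebpa, needed for the step to granulocyte-monocyte progenitors, measured 8.33 and 8.09 at GFP0, 8.48, 8.79 and 7.70 at GFP1, 8.11, 7.68 and 7.46 at GFP2, 7.63 and 7.54 at GFP3, and 8.08, 8.04, 7.67 and 7.38 at GFP4. Its values ran from 7.38 to 8.79, and GFP4 replicate 1 lay just under the lower GFP0 array. Irf8, which directs progenitors towards monocytes and dendritic cells, measured 9.75 and 10.10 at GFP0, 10.81, 10.75 and 9.03 at GFP1, 9.63, 8.59 and 8.11 at GFP2, 7.95 and 7.47 at GFP3, and 7.97, 10.17, 8.45 and 8.00 at GFP4. GFP4 replicate 2 was again high, above both GFP0 arrays. Gfi1, a repressor that acts in neutrophil maturation and also restrains the cycling of stem cells, measured 8.14 and 8.39 at GFP0, 9.69, 8.12 and 9.43 at GFP1, 9.42, 8.91 and 10.15 at GFP2, 9.10 and 9.76 at GFP3, and 9.55, 10.16, 9.22 and 9.89 at GFP4. The GFP4 mean of Gfi1 lay above its GFP0 mean, the opposite order to the other 9 genes' means, and the difference was not called.

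By level means, 7 of the 10 genes were highest at GFP1, 2 at GFP0 (Cst7 and Plac8) and 1 at GFP4 (Gfi1). The shares of all genes highest or lowest at each level were not counted. The lowest mean was at GFP3 for 6 genes, at GFP4 for Mpo, Prtn3 and Plac8, and at GFP0 for Gfi1. In limma's moderated tests with Benjamini-Hochberg adjustment over all genes, none of the 10 was called at any of the 4 steps between neighbouring levels, where 0% of all genes were called. At an unadjusted p under 0.05, 0 of the 10 passed for GFP1 against GFP0, against 10.8% of all genes, 1 for GFP2 against GFP1 (2.71%), 1 for GFP3 against GFP2 (1.36%) and 0 for GFP4 against GFP3 (3.94%).

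Over all 5 levels, Cst7 and Plac8 fell with GFP retention. The slope per level, with equal weight for each level, was -1.07 ± 0.23 for Cst7 (moderated SE, adjusted p = 0.0287, limma with Benjamini-Hochberg) and -0.52 ± 0.11 for Plac8 (adjusted p = 0.0288). Thus 2 of the 10 genes were called lower, against 1.07% of all 18194 genes, and 0 were called higher, against 2.28% of all genes. The largest slope that did not pass was that of Ctsg, at -1.001 ± 0.31 (adjusted p = 0.105). Irf8 had -0.50 ± 0.14 (adjusted p = 0.0788), Mpo -0.85 ± 0.30 (adjusted p = 0.161), Ms4a3 -0.82 ± 0.32 (adjusted p = 0.207) and Elane -0.66 ± 0.36 (adjusted p = 0.387). Gfi1 had a slope of 0.32 ± 0.10 (adjusted p = 0.0989), Cebpa -0.16 ± 0.07 (adjusted p = 0.255) and Prtn3 -0.09 ± 0.08 (adjusted p = 0.636). At an unadjusted p under 0.05, 8 of the 10 slopes passed, against 16.7% of all genes. The median slope of the 10 was -0.59, against -0.01 over all genes. Both calls were lost without GFP0 replicate 1, GFP0 replicate 2, GFP3 replicate 2, GFP4 replicate 3 or GFP4 replicate 4, each left out alone, where 0 of the 10 were called, and without GFP3 replicate 1 the number was 1. Both were also lost with array quality weights, with the replicate number as a block and with 3 prime to 5 prime differences as covariates. Over 27 alternatives the slope of Cst7 stayed between -1.24 and -0.88 and was called in 16, and that of Plac8 stayed between -0.63 and -0.41 and was called in 17.

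The sorted extremes gave large differences with wide intervals. GFP4 minus GFP0 was -3.57 ± 1.03 for Cst7 (adjusted p = 0.107, limma), with a 95% interval from -5.80 to -1.34, and -1.99 ± 0.50 for Plac8 (adjusted p = 0.0655), with an interval from -3.08 to -0.91. For Mpo it was -2.81 ± 1.33 (adjusted p = 0.353), with an interval from -5.68 to 0.07, and for Ctsg -3.15 ± 1.37 (adjusted p = 0.306), with an interval from -6.11 to -0.19. The Ms4a3 difference of -2.28 ± 1.40 (adjusted p = 0.501) and the Elane difference of -1.49 ± 1.59 (adjusted p = 0.723) had intervals that held 0, and with the replicate number as a block the Elane value turned to 0.065. None of the 10 was called lower, against 0.429% of all genes, and none higher, against 1.25% of all genes. At an unadjusted p under 0.05, 4 of the 10 passed, against 14.7% of all genes, among them Gfi1 with 1.44 ± 0.43 (adjusted p = 0.124). The median difference of the 10 was -1.74, against -0.04 over all genes. All 4 GFP4 arrays lay below both GFP0 arrays for 3 of the 10 genes (Cst7, Plac8 and Cebpa), an arrangement found in 7.75% of all genes.

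GFP4 was also set against GFP1. The means of 7 of the 10 genes were highest at GFP1, so low GFP4 values against it follow in part from those same means. GFP1 minus GFP0 was itself not called for any of the 10 (smallest adjusted p = 0.506, limma). GFP4 minus GFP1 was -1.98 ± 0.44 for Plac8 (adjusted p = 0.0558, limma) and -3.22 ± 0.91 for Cst7 (adjusted p = 0.119), and the median over the 10 was -2.36, against 0.06 over all genes. None of the 10 was called, against 0.555% of all genes called lower, and 8 passed an unadjusted p under 0.05, against 12.7% of all genes. For GFP4 minus GFP2, 0 of the 10 were called, against 0.0824% of all genes called lower, and 2 passed unadjusted, against 13.2% of all genes. The F test for any difference between levels called 0 of the 10, against 0.698% of all genes, and 4 passed unadjusted, against 12.8% of all genes. The F test for a departure from a straight line called 0 of the 10, with 0% of all genes called, and 0 of the 10 passed unadjusted, against 7.01% of all genes.

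The spread within levels was large for these genes. The residual SD within levels was 2.20 for Elane, 1.93 for Ms4a3, 1.89 for Ctsg, 1.84 for Mpo and 1.42 for Cst7, against a median of 0.312 over all genes, and 99.8% of all genes had a smaller residual SD than Cst7. Cebpa, at 0.37, and Prtn3, at 0.42, were nearer to the typical gene. Single arrays of GFP4, GFP1 and GFP2 lay far from the others of their level. GFP4 replicate 2 exceeded the mean of the other 3 GFP4 arrays in all 10 genes, by 4.75 for Ctsg, 4.40 for Mpo, 4.18 for Ms4a3, 3.96 for Elane, 3.47 for Cst7, 2.24 for Plac8 and 2.03 for Irf8. Of all genes, 0.0110% lay at least as far from the other GFP4 arrays in this array as Ctsg did, and 0.835% as far as Irf8. The excess was 0.65 for Prtn3, 0.61 for Gfi1 and 0.33 for Cebpa. GFP1 replicate 3 and GFP2 replicate 3 each lay below the mean of the other arrays of their level in 9 of the 10 genes. The difference for Elane was -5.19 in GFP1 replicate 3 and -4.16 in GFP2 replicate 3, and for Mpo it was -2.65 in GFP1 replicate 3 and -3.28 in GFP2 replicate 3. GFP2 replicate 1 lay above the other GFP2 arrays in 9 of the 10 genes, by 3.42 for Elane and 3.06 for Ms4a3.

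**Figure D2:**
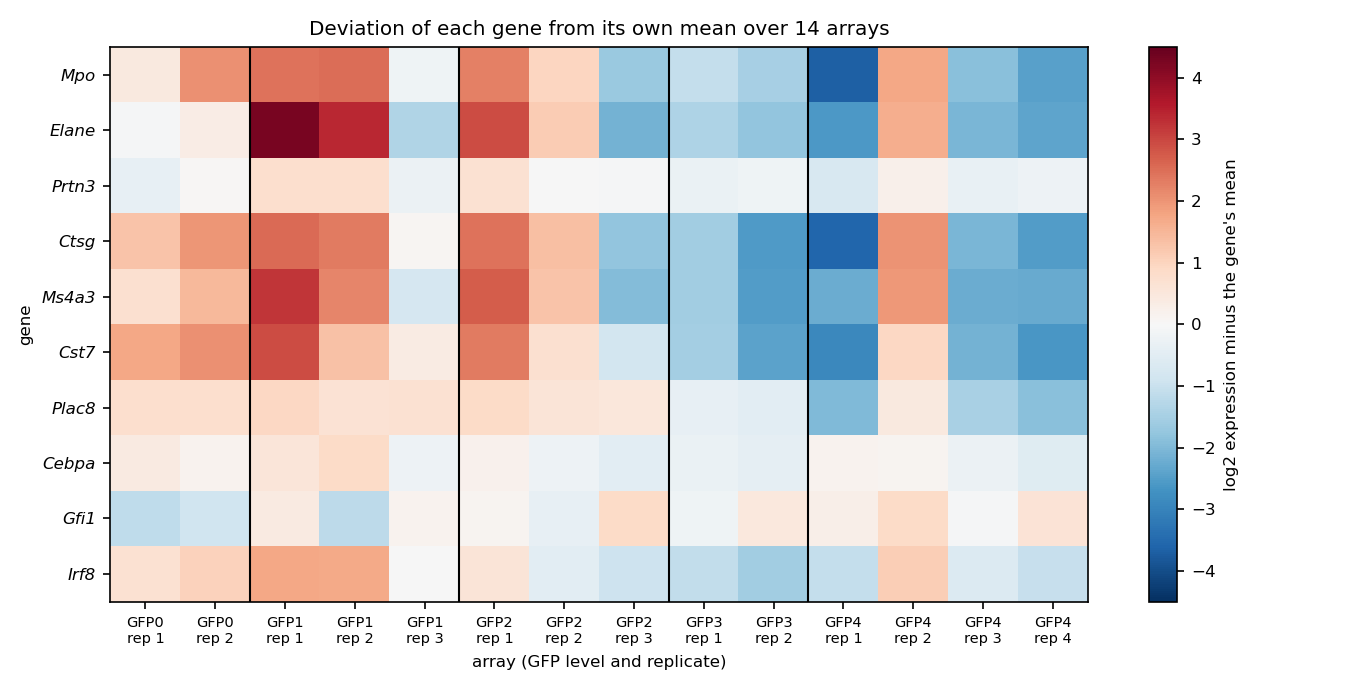
Log2 expression of each gene (rows) in each array (columns, grouped by GFP level) minus the gene's own mean over 14 arrays, in colour from blue (lower) to red (higher). GFP4 replicate 2 is red for Mpo, Elane, Ctsg, Ms4a3 and Irf8 between blue neighbours, and GFP1 replicate 3 and GFP2 replicate 3 are lower than the other arrays of their level for Mpo, Elane, Ctsg and Ms4a3.

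Without GFP4 replicate 2, Mpo, Ctsg, Ms4a3 and Irf8 joined Cst7 and Plac8. The array stands out in the values of these genes themselves, so this is no independent support for the calls. Among the 13 remaining arrays, 6 of the 10 genes had a slope called lower, against 1.53% of all genes. The slopes were -1.24 ± 0.18 for Cst7 (adjusted p = 0.00251, limma), -0.63 ± 0.05 for Plac8 (adjusted p = 6.45e-05), -1.24 ± 0.23 for Ctsg (adjusted p = 0.0117), -0.61 ± 0.11 for Irf8 (adjusted p = 0.0131), -1.07 ± 0.23 for Mpo (adjusted p = 0.0249) and -1.02 ± 0.26 for Ms4a3 (adjusted p = 0.04995). Elane, at -0.86 (adjusted p = 0.179), did not pass. For GFP4 minus GFP0, 2 of the 10 were called lower, Cst7 at -4.44 (adjusted p = 0.0167) and Plac8 at -2.55 (adjusted p = 0.000196), against 0.66% of all genes. For GFP4 minus GFP1, 5 of the 10 were called lower, against 1.08% of all genes. The 3 other GFP4 arrays lay below both GFP0 arrays in 8 of the 10 genes, an arrangement found in 11.1% of all genes.

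**Figure D3:**
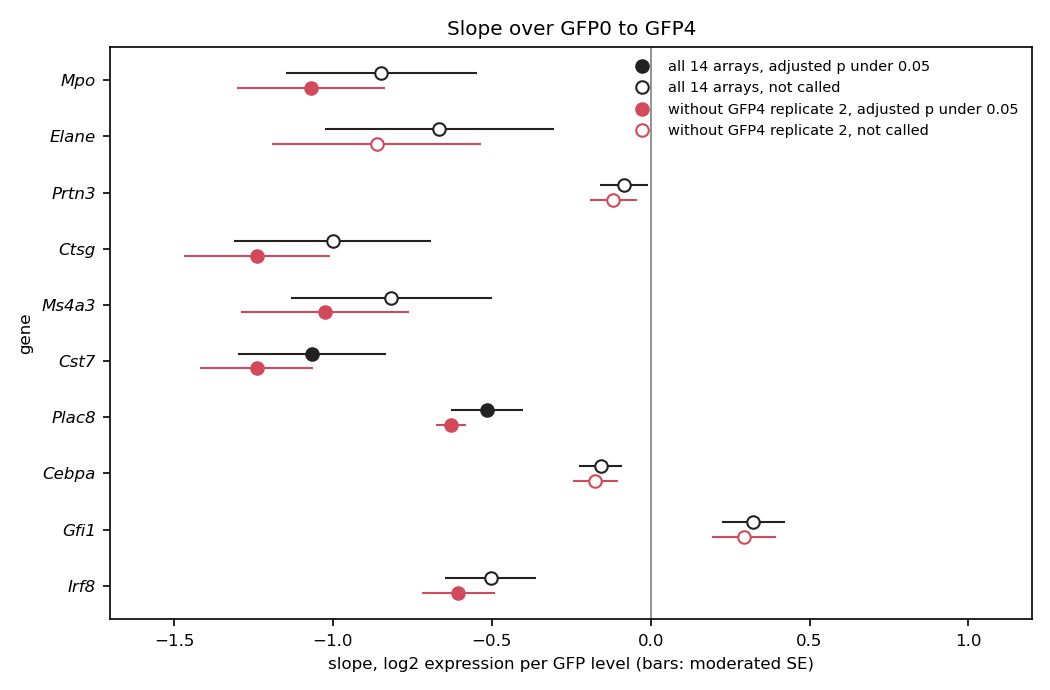
Slope in log2 expression per GFP level (horizontal axis) for each gene, with bars of 1 moderated SE, from all 14 arrays (black) and without GFP4 replicate 2 (red). Filled points passed an adjusted p of 0.05: Cst7 and Plac8 with all arrays, and 6 genes without GFP4 replicate 2.

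Irf8 was measured by a pair of probe sets that differed in their calls. The brighter one gave the values above. The other measured 10.04 and 10.53 at GFP0, 11.22, 10.44 and 8.91 at GFP1, 9.87, 7.86 and 7.37 at GFP2, 7.32 and 7.77 at GFP3, and 7.38, 8.60, 6.69 and 7.92 at GFP4. In this probe set every GFP4 array, replicate 2 included, lay below both GFP0 arrays. Its slope was -0.79 ± 0.16 (adjusted p = 0.0272, limma, adjusted over all probe sets), and the adjusted p of the brighter one in the same fit was 0.0977. The Irf8 slope thus passed or missed the threshold with the probe set used.

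The genes were high in the same arrays. Over the 14 arrays Mpo correlated with Ctsg at Pearson's r = 0.982 (Spearman's rho = 0.956), with Ms4a3 at r = 0.952 (rho = 0.925), with Cst7 at r = 0.936 (rho = 0.912) and with Elane at r = 0.920 (rho = 0.978). The permutations moved all 14 arrays freely between levels, so a trend over the levels shared with Mpo also lowers p. The genes were chosen with earlier results of these data known, so the p-values are no independent support for a relation. The permutation p of r was 1e-05 for Ctsg and Ms4a3, the smallest that the 100000 permutations can give, 2e-05 for Elane and 3e-05 for Cst7. After Benjamini-Hochberg adjustment over the 9 relations with Mpo, the permutation p of these 4 was at most 6.7e-05 for r and at most 0.000135 for rho. Irf8 (r = 0.881, rho = 0.837), Plac8 (r = 0.846, rho = 0.837) and Prtn3 (r = 0.839, rho = 0.815) also tracked Mpo, with adjusted permutation p up to 0.000103 for r and up to 0.000553 for rho. Cebpa followed less closely (r = 0.663, adjusted permutation p = 0.0112, rho = 0.754, adjusted permutation p = 0.00294), and the Gfi1 relation did not pass (r = -0.392, adjusted permutation p = 0.165, rho = -0.398, adjusted permutation p = 0.159). Without the 2 arrays farthest from the Mpo median, GFP4 replicates 1 and 4, r was 0.976 for Ctsg, 0.977 for Ms4a3, 0.925 for Elane, 0.909 for Cst7, 0.892 for Irf8, 0.813 for Cebpa, 0.802 for Prtn3, 0.733 for Plac8 and -0.315 for Gfi1. Taken as deviations from level means, r with Mpo was 0.985 for Ctsg, 0.945 for Ms4a3, 0.944 for Irf8, 0.929 for Cst7, 0.917 for Elane, 0.867 for Prtn3, 0.780 for Plac8, 0.546 for Cebpa and -0.098 for Gfi1, so the relation with all but Gfi1 was also seen between arrays of one level. Both of these measures kept GFP4 replicate 2, which was high in most of these genes, and r without that array was not computed.

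Outside the 10, the genes most like the mean profile of Mpo, Elane, Prtn3 and Ctsg over the 14 arrays were ranked by Pearson's r among 12799 genes whose brightest level mean reached the table's median. In this ranking, a description with no test, 21 genes had r of at least 0.9. The first 8 were Fcgr3 (r = 0.960), a low-affinity Fc receptor of myeloid cells, Igsf6 (0.945), Ap3s1 (0.939), a subunit of the AP-3 adaptor that sorts proteins to lysosome-related organelles, Gla (0.935), the lysosomal alpha-galactosidase, Ndufb8 (0.928), a subunit of respiratory complex I, Mt1 (0.927), a metallothionein, Hp (0.927), haptoglobin, and Csf1r (0.926), the receptor of macrophage colony-stimulating factor. Fcgr3 measured 9.30 and 9.89 at GFP0, 12.18, 10.64 and 7.69 at GFP1, 11.58, 8.93 and 7.22 at GFP2, 7.48 and 7.39 at GFP3, and 6.77, 10.88, 7.68 and 7.21 at GFP4. Like Elane, it was highest at GFP1 and high in GFP4 replicate 2. None of the 8 passed the test of the slope. Among the early myeloid genes and factors, r with the same profile was 0.980 for Ms4a3, 0.933 for Cst7, 0.899 for Irf8, 0.806 for Plac8, 0.717 for Cebpa and -0.350 for Gfi1.

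Other genes of the same programme mostly did not pass. Of 9 measured granule proteins and granule-handling genes outside the 10, 1 fell and 1 rose over the levels, and the median slope was 0.00. Serpinb1a, an inhibitor of the granule serine proteases, had a slope of -0.47 ± 0.09 (adjusted p = 0.0120, limma) and a GFP4 minus GFP0 difference of -1.99 ± 0.38 (adjusted p = 0.0216). Unc13d, which primes secretory granules for release, had a slope of 0.24 ± 0.05 (adjusted p = 0.0231) and a GFP4 minus GFP0 difference of 0.99 ± 0.22 (adjusted p = 0.0439), which did not pass without GFP4 replicate 2 (0.91, adjusted p = 0.0661). Ctsc, the protease that activates the granule serine proteases, had a slope of -0.21 (adjusted p = 0.199), and Ap3b1, of the AP-3 adaptor, 0.35 (adjusted p = 0.294). Of 14 measured other myeloid transcription factors, Egr2 was called lower, with a slope of -0.32 ± 0.08 (adjusted p = 0.0475). Its mean was 6.45 at GFP0 and 4.84, 4.81, 4.62 and 4.95 at GFP1 to GFP4. The difference thus lay between GFP0 and the rest, with all means below the table's median of 7.03. The other 13 did not pass, and the median slope of the list was -0.02. Without GFP4 replicate 2, Egr2 no longer passed (-0.29, adjusted p = 0.0608) and 0 of the 14 were called. The 3 next by p were Id2 (-0.22, adjusted p = 0.340), Cebpd (-0.26, adjusted p = 0.353) and Myb (0.09, adjusted p = 0.424). Of 10 myeloid cytokine and Fc receptors, 0 passed, with a median slope of -0.07, and the smallest p was that of Csf1r (-0.67 ± 0.20, adjusted p = 0.0990). Csf2ra (0.26, adjusted p = 0.148), Csf3r (-0.14, adjusted p = 0.195) and Csf2rb2 (0.24, adjusted p = 0.242) followed. Without GFP4 replicate 2, Csf1r was called lower (-0.80 ± 0.17, adjusted p = 0.0218), 1 of the 10.

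Markers of other blood cells were high in some of the arrays in which the granule genes were high. The calls below are of the slope. Of all genes, 1.07% were called lower and 2.28% higher, and 1.53% were called lower without GFP4 replicate 2. The mean level of 11 mature neutrophil markers of 13 listed ranged from 6.65 to 8.56 in the GFP4 arrays and from 8.91 to 11.03 in the GFP0 arrays. The slope of 1 of the 11 (Ltf) was called lower. Ltf had a mean of 10.12 at GFP0 and of 7.37, 7.16, 7.06 and 7.13 at GFP1 to GFP4. Without GFP4 replicate 2, 4 of the 11 were called lower (Ltf, Camp, Lcn2 and Chil3). In GFP4 replicate 2 that mean was 8.56, against 6.65 to 7.53 in the other GFP4 arrays. The mean of 11 monocyte and macrophage markers was 8.61 in GFP4 replicate 2 and 7.33 to 7.74 in the other GFP4 arrays, and 8.53 to 8.86 at GFP0, with 0 of the 11 called, or 1 (Csf1r) called lower without that array. The mean of 7 mast cell and basophil markers was 8.08 in GFP4 replicate 2 and 6.30 to 6.50 in the other GFP4 arrays, and 8.60 to 9.10 at GFP0, with 3 of the 7 (Cpa3, Ms4a2 and Fcer1a) called lower over the levels. The mean of 6 erythroid markers was 7.52 in GFP4 replicate 2, 6.85 to 7.33 in the other GFP4 arrays and 8.24 to 9.71 at GFP0. Of the 6, 3 (Klf1, Gata1 and Car1) were called lower. The mean of 7 B cell markers ranged from 7.58 to 8.11 at GFP4 and from 8.40 to 9.44 at GFP0. Of the 7, 2 (Vpreb1 and Ighm) were called lower. The mean of 9 T and NK cell markers ranged from 6.74 to 7.26 at GFP4 and from 7.49 to 8.39 at GFP0, with 1 (Nkg7) called lower, and that of 9 dendritic cell markers from 8.29 to 8.79 at GFP4 and from 8.47 to 9.31 at GFP0, with 1 (Ccr9) called lower. The mean of 10 HSC markers was 10.27 in GFP4 replicate 2 and 10.47 to 10.91 in the other GFP4 arrays, and 8 of the 10 rose over the levels, or 9 without that array. For the mast cell and basophil, erythroid, B cell, T and NK cell and dendritic cell lists, the counts called lower were equal without that array. The part of these markers in the granule-gene values was not tested, and RMA values have no zero at which a marker could be called absent.

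**Figure D4:**
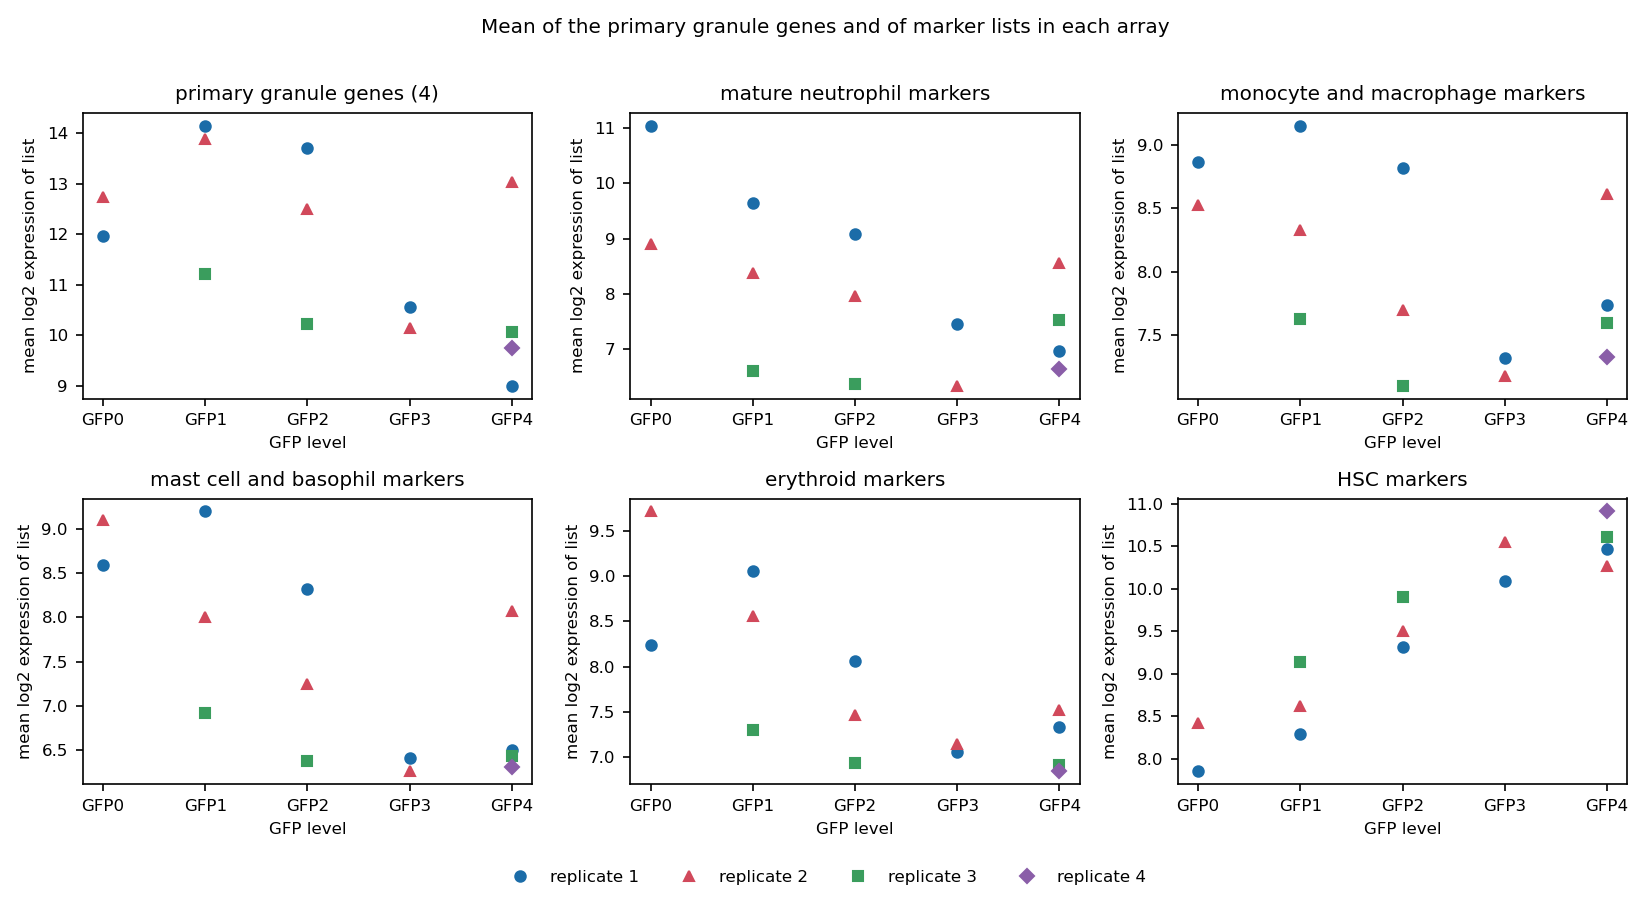
Mean log2 expression of the 4 primary granule genes and of 5 marker lists (vertical axes, own scale per panel) in each of the 14 arrays against GFP level (horizontal axis), with symbols for the replicate numbers. GFP4 replicate 2 (triangle) lies above the other GFP4 arrays in every panel but that of the HSC markers, where it is the lowest of the 4.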

How the data were processed

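RNA of 14 sorted LSK samples was amplified and measured on Affymetrix arrays, per the labels' protocols. The submitters' processing notes name GCOS, RMA and affy without versions. The authors deposited log2 expression per probe set, analysed as given. RMA corrects background, normalizes quantiles and summarizes probes. Of 45101 probe sets, 34958 named exactly 1 symbol, 932 several and 9211 none. The brightest probe set by mean over 14 arrays stood for a gene (18194 genes), and dim genes were kept. No array-to-animal map or scan batch was used.

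In limma 3.58.1 (R 4.3.3) a group-means model with empirical Bayes moderation was fitted to all arrays. Contrasts were the slope, GFP4 against GFP0, GFP1 and GFP2, and neighbouring steps, with F tests, two-sided, adjusted by Benjamini-Hochberg over all genes at a threshold of 0.05. Permutation p-values were computed in Python 3.11.15. The r with arrays left out and of deviations came from scipy 1.17.1, and figures from matplotlib 3.10.9. The fit was tested on simulated data. The members and lists were chosen with earlier results of these data known. All 10 members were named; of the other lists, every gene passing for the slope or GFP4 against GFP0 and the 4 with the smallest slope p; and the 8 genes most like the granule profile. Alternatives were centring, other normalization, a dim filter, probe-set means, another variance model, array weights, a replicate block, covariates and left-out arrays. Deviations of same-numbered arrays from their level means correlated with r from -0.258 to 0.576, and 9 of 23 pairs exceeded 0.1. Not every pair did and the labels name no animals, so numbers were not treated as pairs. Whether some same-numbered arrays share animals is unknown. The number of arrays limits the precision. Promoter windows came from RefSeq (GRCm38.p6), and all 10 members matched.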

Additional observations from a re-analysis of the deposited data

Results flagged for a closer look

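In the GFP4 group, the only one of 4 or more arrays, GFP4 replicate 2 lay far from the other arrays in 2 of the 10 genes by Dixon's ratio at the 95% level. Ms4a3 measured 12.24 there, and its gap to the nearest GFP4 array was 0.993 of the group's range. Elane measured 11.17 there, with a gap of 0.877 of the range. Both exceed the critical value for 4 arrays, as chance does in about 5% of groups. Over all 18194 genes, 9.17% had an outlying GFP4 array by this measure, and in 1.18% it was GFP4 replicate 2 on the high side. That one GFP4 array is high in these genes was known when they were chosen, so these values describe it and are no independent test.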

How the results depend on the processing

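Of 810 values of the 10 genes under other settings, 764 kept their direction and side of the threshold, 20 came to pass it, 21 no longer did and 5 reversed. With all arrays, 0, 2 and 0 of the 10 genes were called lower for GFP4 against GFP0, the slope and GFP4 against GFP1, and 306, 609 and 180 of all genes were called. Leaving out each array in turn gave 0 to 2, 0 to 6 and 0 to 5 of the 10, and 51 to 363, 182 to 768 and 39 to 312 of all genes, in that order. For GFP4 against GFP0, dim genes left out gave 1 of the 10; genes called were 2 with array quality weights, 67 with the replicate block, 58 with the compared arrays alone, 142 with 3 prime to 5 prime covariates and 41 without replicate 1 of GFP0 and GFP4. For the slope, 0 of the 10 were called with array weights (90 genes), the replicate block (337), the 3 prime to 5 prime covariates (165) and without those replicates 1 (156), and 1 with the interquartile range as covariate. For GFP4 against GFP1, 1 of the 10 was called with dim genes left out, with probe-set means, with a trended robust variance and with array weights (293 genes); genes called were 74 with the block, 42 with the compared arrays alone, 28 with the 3 prime to 5 prime covariates and 112 without those replicates 1. Leaving out those and GFP4 replicate 2 together, chosen after seeing the data, gave 1 of the 10 in each comparison, with 112 genes for GFP4 against GFP0 and 269 for the slope. GFP4 minus GFP0 reversed to 0.065 for Elane under the replicate block, and for Prtn3 to 0.062 under the block, 0.13 without GFP0 replicate 2, 0.059 without GFP4 replicate 1 and 0.17 with the covariates (its range over left-out arrays was -0.32 to 0.13); the causes were not tested. The replicate block rests on numbers that were not shown to pair arrays. Precision is limited by 2 to 4 arrays a level, and no detection calls bound dim probe sets.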

Other observations

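The GFP0 arrays differed in the granule genes and in markers of other blood cells. The mean of 11 mature neutrophil markers, which include the secondary granule genes Ltf, Camp and Ngp, was 11.03 in GFP0 replicate 1 and 8.91 in GFP0 replicate 2. The mean of Mpo, Elane, Prtn3 and Ctsg was 11.96 in GFP0 replicate 1 and 12.74 in GFP0 replicate 2, the opposite order. In GFP0 replicates 1 and 2, B cell markers averaged 9.44 and 8.40, T and NK cell markers 8.39 and 7.49, and dendritic cell markers 9.31 and 8.47. Erythroid markers averaged 8.24 and 9.71 there, and mast cell and basophil markers 8.60 and 9.10. GFP0 replicate 1 was also the array with the narrowest spread of values. With 2 arrays at this level, these differences were not tested.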
